A study of Mus musculus with 25 samples.

Results

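The regions described here are 744 of the 13527 merged ATAC-seq peaks of the study: stretches of open chromatin that overlapped, by at least 1 bp, a peak in the lists of both groups of cells taken after a first pregnancy and that overlapped no peak in the list of naive animals. They were chosen by what was measured, namely presence in 3 pooled peak lists, so that every comparison of the naive libraries with the libraries taken after a first pregnancy is a description and carries no test. In ATAC-seq a transposase inserts adapters where DNA is accessible, and a merged peak's count is the number of reads of a library that fell in it. The cells were CD8+ T cells specific for an OVA peptide (T_FGS, fetus/graft-specific T cells), sorted with a tetramer from spleen and lymph nodes of young adult C57BL/6 female mice. The paternal strain, 2W-OVA.BALB/c, carries that peptide as a transgene product, so all groups were judged through 1 model antigen. Naive mice had received no treatment (3 libraries). N+P mice went through a semi-allogeneic pregnancy without an earlier graft, and their cells were sorted shortly after birth into C1 (PD1-) and C5 (PD1+CD73+), with 3 libraries each. Sensitized mice had rejected an allogeneic skin graft of the paternal strain and were not mated (4 libraries). S+P mice had the graft and then the pregnancy, and gave C4 (PD1-), C5 (PD1+CD73+) and C7 (PD1+CD73-) cells, with 4 libraries each. Libraries of N+P or S+P subsets that carry the same replicate number came from the same animals. The labels give no engineered allele for the females of any group.

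Accessible stretches are mostly promoters, where transcription starts, and distal elements such as enhancers, which bind transcription factors and act on genes over a distance. In CD8+ T cells, activation opens sites bound by AP-1, NFAT and T-box factors, while sites of naive and stem-like cells carry TCF/LEF, ETS and RUNX factors. PD1 is an inhibitory receptor that stays high on chronically stimulated T cells, and CD73 (gene Nt5e) is an ectoenzyme that makes adenosine.

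The middle of 7 of these peaks is shown, because these are members with the highest or the lowest level after a first pregnancy relative to naive, or were the first called in a comparison among sensitized groups. All are plus-strand sequence of GRCm39, each named after the protein-coding gene that starts closest to it, a label of position and not of regulation. Capitals mark any of 9 short strings searched on both strands: CCGGAAGT (ETS), TGTGGTT (RUNX), TGANTCA (AP-1), CTTTGAT (TCF/LEF), GGTGTGA (T-box), TGGAAAA (NFAT), GGGCGG (KLF/SP), CACCTG (E-box) and CCACNAG (part of the CTCF motif). The RUNX and CTCF strings can share the letters CCACA. No stretch of the member on an unplaced contig is shown, and for Trim30d only the 231 bases upstream of the annotated transcript are given.
Cst5, chr2:149192380-149192679: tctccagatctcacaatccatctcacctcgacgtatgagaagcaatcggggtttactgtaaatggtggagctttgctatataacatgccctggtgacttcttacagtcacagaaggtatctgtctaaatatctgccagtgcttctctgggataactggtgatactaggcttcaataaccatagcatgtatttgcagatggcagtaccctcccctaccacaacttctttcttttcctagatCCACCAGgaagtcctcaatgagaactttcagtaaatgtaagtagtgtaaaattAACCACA
Trim30d, chr7:104157108-104157338: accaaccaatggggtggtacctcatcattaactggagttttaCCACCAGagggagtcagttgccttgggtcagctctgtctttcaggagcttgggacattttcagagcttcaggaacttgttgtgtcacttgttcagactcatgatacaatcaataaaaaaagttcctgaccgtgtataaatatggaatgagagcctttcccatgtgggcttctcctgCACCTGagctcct
Kcnip1, chr11:33960120-33960419: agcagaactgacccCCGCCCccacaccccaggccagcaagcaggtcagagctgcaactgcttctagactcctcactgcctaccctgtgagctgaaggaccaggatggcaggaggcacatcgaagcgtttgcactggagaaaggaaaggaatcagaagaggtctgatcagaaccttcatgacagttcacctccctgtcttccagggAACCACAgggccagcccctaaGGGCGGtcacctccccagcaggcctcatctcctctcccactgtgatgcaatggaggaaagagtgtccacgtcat
Selplg, chr5:113963652-113963951: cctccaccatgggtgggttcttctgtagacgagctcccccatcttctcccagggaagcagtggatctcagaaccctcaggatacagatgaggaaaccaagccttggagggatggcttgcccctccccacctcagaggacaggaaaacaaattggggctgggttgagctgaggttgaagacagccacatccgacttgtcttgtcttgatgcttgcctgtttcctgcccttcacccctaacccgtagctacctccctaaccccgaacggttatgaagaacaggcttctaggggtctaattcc
D16Ertd472e, chr16:78329054-78329353: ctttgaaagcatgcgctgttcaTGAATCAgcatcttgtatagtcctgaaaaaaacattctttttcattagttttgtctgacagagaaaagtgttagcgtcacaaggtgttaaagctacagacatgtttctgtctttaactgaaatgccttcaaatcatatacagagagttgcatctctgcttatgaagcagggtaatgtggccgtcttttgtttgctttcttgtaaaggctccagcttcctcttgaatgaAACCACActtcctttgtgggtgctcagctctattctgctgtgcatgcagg
Klf5, chr14:99687041-99687340: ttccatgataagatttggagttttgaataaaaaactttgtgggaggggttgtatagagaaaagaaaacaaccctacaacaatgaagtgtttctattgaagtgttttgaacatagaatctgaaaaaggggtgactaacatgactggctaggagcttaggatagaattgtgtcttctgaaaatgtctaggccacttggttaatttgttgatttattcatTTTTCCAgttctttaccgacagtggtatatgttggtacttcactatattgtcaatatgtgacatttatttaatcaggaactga
Ntrk3, chr7:78247473-78247772: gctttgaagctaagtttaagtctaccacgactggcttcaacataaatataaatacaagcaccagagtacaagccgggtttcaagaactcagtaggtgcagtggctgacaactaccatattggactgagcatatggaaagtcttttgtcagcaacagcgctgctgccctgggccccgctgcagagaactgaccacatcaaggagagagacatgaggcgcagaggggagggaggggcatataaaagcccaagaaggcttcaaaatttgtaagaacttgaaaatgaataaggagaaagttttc
The Cst5 and Trim30d stretches, with the highest levels relative to naive, each held a CTCF string, besides a RUNX string in Cst5 and an E-box string in Trim30d. The Kcnip1 stretch held the KLF/SP string at 2 places and a RUNX string. The D16Ertd472e stretch held an AP-1 and a RUNX string, the Klf5 stretch an NFAT string, and the Selplg and Ntrk3 stretches none of the 9.

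The libraries held between 2430890 (S+P C4 replicate 1) and 25419715 (S+P C5 replicate 1) counts in peaks. Over all peaks, by Pearson's r of log2(normalized count + 1), 10 of 25 libraries lay nearer to the mean of another group than to the rest of their own. Among the N+P libraries these differences were small, with C1 and C5 in each other's place. Naive replicate 3 lay nearer to the N+P C1 mean (0.988) than to the other Naive libraries (0.970). Sensitized replicates 3 and 4 and S+P C4 replicate 1 lay nearest to N+P C5 (0.973, 0.955 and 0.923), against 0.918, 0.937 and 0.869 with the rest of their own groups. Sensitized replicate 1, in turn, lay nearest to S+P C4 (0.931). The third S+P C4 library had an r of 0.938 with the S+P C7 mean and 0.937 within its group, and the first S+P C7 library one of 0.959 with the mean of S+P C5 and 0.954 within its group. The design targets no gene that could check the labels, so results that rest on single libraries are given with and without them. Of the 7 CD8 T cell markers, 6 had a peak at their start, with a summed level of 2636 to 3743 normalized counts over the libraries, and only Cd2 had none. None of the 7 B cell, 3 NK cell and 5 trophoblast or fetal epithelium markers had a peak at its start. Among the 7 myeloid markers Cd68 had one (107 to 158 normalized counts in Naive and N+P libraries and 163 to 444 in the sensitized groups), among the 3 CD4 or regulatory T cell markers Foxp3 (643 to 885), and among the 4 erythroid markers Klf1 (210 to 348). No peak at a marker start was among the 744, and the part of the Cd68 difference in the results was not tested. In sorted bulk libraries, a site open in fewer cells and a site less open in each cell cannot be told apart.

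Of the 744 peaks, 418 (56.2%) had their middle within 1000 bp of a transcript start and are called promoter peaks, 156 (21.0%) were intergenic, 141 (19.0%) intronic and 28 (3.76%) exonic. One more covered 14604 bp of the unplaced contig MU069435.1, on which no gene is annotated. Peaks present in both N+P lists and in the Naive list, the 7026 most alike in how they were listed, were promoter peaks more often (69.0%). Over all peaks the share was 56.7%. The median length was 1169 bp among the 744 and 1208 bp among the 7026, and the median GC content was 53.6% and 55.6%. Within promoter peaks the medians were 58.5% and 58.3% GC, and within intergenic peaks 47.5% and 48.2%.

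The 743 members with a nearest gene fell near 682 genes. Most of these genes (632) had 1 member, 41 had 2 and 7 had 3. Cblb and Ntsr2 had 4 members each and were singled out after the values were seen. By chromosome, the X chromosome held 34 members among its 307 peaks (11.1%), chromosome 18 held 36 of 396 (9.09%) and chromosome 10 held 70 of 864 (8.10%), against 5.50% overall. At the low end, chromosome 11 held 13 of 813 (1.60%) and chromosome 19 held 7 of 331 (2.11%). The median log2 ratio of N+P to Naive was 0.10 over all peaks of the X chromosome and -0.22 over all peaks of chromosome 11.

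The members were weakly scored in the lists that chose them. Their median ChIP-R score was 427 in the N+P C1 list and 430 in the N+P C5 list, against 670 and 672 for the 7026 peaks that were also listed in Naive. A list q-value under 0.05 was reached by 2 members in the N+P C1 list and 3 in the N+P C5 list, against 614 (8.74%) and 609 (8.67%) of the 7026. The rule turned on any overlap with a Naive peak, and 3 peaks on either side are given. The members nearest to a Naive peak lay 114 bp (Gsta4), 165 bp (Dipk1a) and 173 bp (Ptgr3) from one, and their log2 ratios of N+P to Naive were 0.30, -0.10 and 0.32. Among peaks of both N+P lists outside the rule, those with the smallest overlap in bp shared 170 of 184 bp (Wdr5), 205 of 458 bp (Lgr4) and 237 of 388 bp (Cmip) with one. Their ratios were -0.06, 0.24 and 0.22. None of these overlaps was near 1 bp, so these peaks do not describe the threshold itself. Of the 744, 735 had no Naive peak within 500 bp.

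The difference in reads between N+P and Naive libraries was small at most members. The question behind this comparison is whether a first pregnancy left naive T_FGS with open chromatin that they lacked before. Counts were divided by the size factor of their library (normalized counts). At the median member the level was 450.1 normalized counts in Naive, 518 in N+P C1 and 519.8 in N+P C5, a log2 ratio of 0.21, or 1.16-fold. The ratio ran from -0.40 to 0.76, the quartiles were 0.10 and 0.32, and 656 of 744 (88.2%) were above 0. Among the 7026 peaks also listed in Naive the median was 0.03 and 56.5% were above 0. No member reached a difference of 2-fold in means. The choice of members used these libraries, so the shift is part of how they were chosen.

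**Figure D1:**
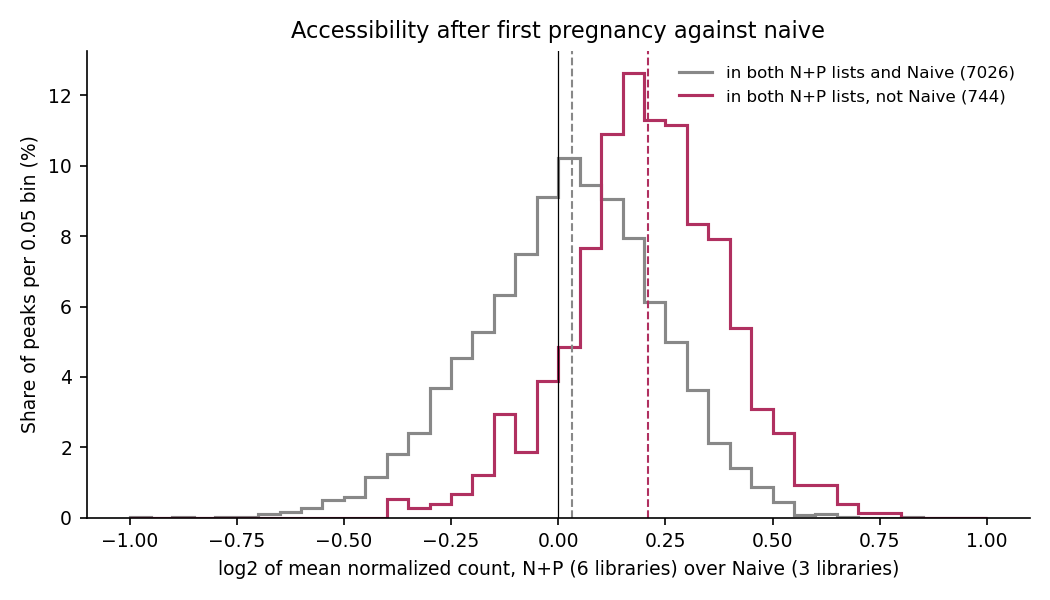
Share of peaks in each 0.05-wide bin (y axis, %) against the log2 ratio of the mean normalized count in the 6 N+P libraries over the 3 Naive libraries (x axis), for the 744 peaks in both N+P lists but not the Naive list and the 7026 in all 3 lists; dashed lines are medians. The medians were 0.21 and 0.03, and the distributions overlapped.

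In 130 members (17.5%) all 6 N+P libraries lay above all 3 Naive libraries, against 8.04% of all peaks and 11.8% of the 7026. Naive replicate 3 was the highest Naive library in 585 members (78.6%), against 47.9% of the 7026. This library, the deepest of its group with 13165657 counts, moved the ratio most. Relative to the Naive mean, the median member stood at -0.08 and -0.11 in Naive replicates 1 and 2, at 0.17 in Naive replicate 3 and at 0.18 to 0.24 in the 6 N+P libraries. Against Naive replicates 1 and 2 alone the median log2 ratio of N+P was 0.31, and against Naive replicate 3 alone it was 0.05. All 6 N+P libraries lay above Naive replicates 1 and 2 in 443 members (59.5%). The ratio was alike at promoter (0.20), intronic (0.20) and intergenic members (0.23), whereas among the 7026 it was 0.06, -0.05 and -0.02.

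**Figure D2:**
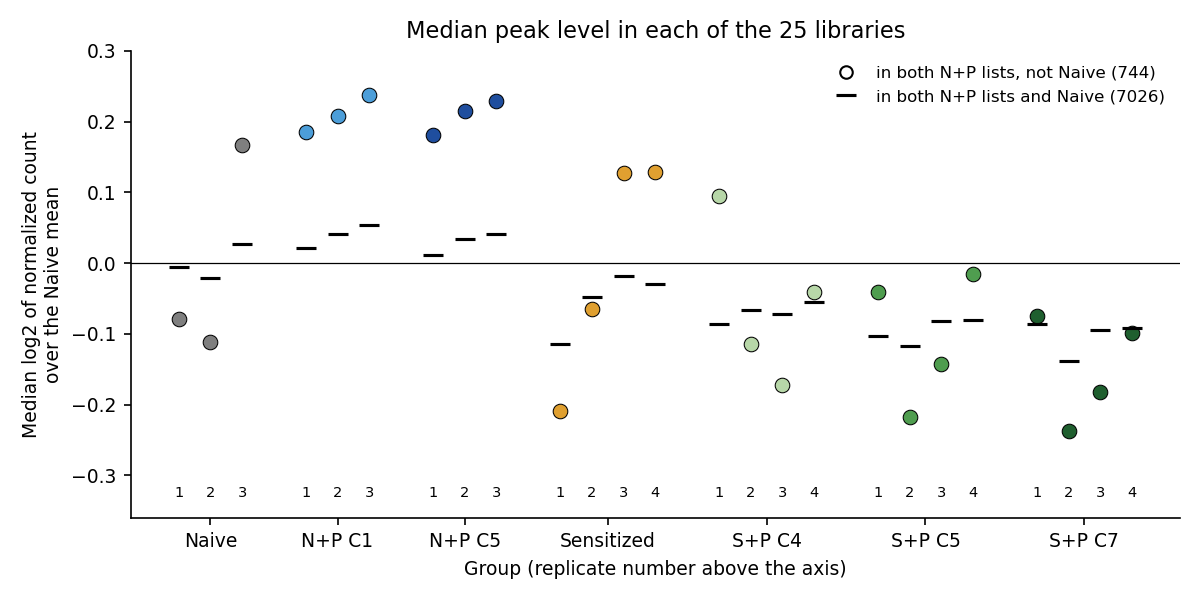
Median over peaks of the log2 normalized count relative to the Naive mean (y axis) in each library, by group and replicate number (x axis); circles are the 744 members, dashes the 7026 peaks in all 3 lists. Naive replicate 3 (0.17) stood near the N+P libraries (0.18 to 0.24), and Sensitized replicates 3 and 4 (0.13 each) and S+P C4 replicate 1 (0.09) stood above the other libraries of their groups.

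The 2 sorted subsets after a first pregnancy did not separate at these peaks. The median log2 ratio of N+P C5 to N+P C1 was 0.00, its range was -0.41 to 0.34, and 10 of 744 members (1.34%) lay beyond 0.25 in either direction, against 66 of the 7026 (0.939%) and 1313 of all peaks (9.71%). PD1+CD73+ and PD1- cells of these animals were used alike by the rule, so this too is a description.

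The members with the highest ratio lay near Cst5, Trim30d, Dnajb14 and Ccdc54. The intergenic peak chr2:149192247-149192811, 54448 bp from the start of the cystatin gene Cst5, held 99.2, 145 and 228 normalized counts in Naive, 226, 257 and 326 in N+P C1 and 222, 256 and 317 in N+P C5. Naive replicate 3 reached the lowest N+P libraries there. In the sensitized groups, which the rule did not use, Sensitized held 60.0, 96.5, 162 and 189 and S+P C7 75.7, 86.8, 49.7 and 47.0, and S+P C7 was called lower (-0.98 ± 0.44 (SE), adjusted p = 0.055). Without Sensitized replicates 3 and 4 the log2 fold change was -0.27 (adjusted p = 0.75). At the promoter of Trim30d (chr7:104156756-104157621), a member of the tripartite motif family, the values were 150.2, 240.0 and 274 in Naive, 388, 349 and 420.1 in N+P C1 and 314, 330.3 and 380.0 in N+P C5, and the groups did not overlap. The promoter peak of Dnajb14 (chr3:137572875-137574315), which encodes a J-domain co-chaperone, held 434, 371 and 645 in Naive, 876, 742 and 642 in N+P C1 and 879, 814 and 659 in N+P C5. Here Naive replicate 3 lay beside the third replicate of either subset. The peak between genes nearest to Ccdc54 (chr16:50556534-50558224) held 489, 506 and 816 in Naive, 951, 924 and 993 in N+P C1 and 959, 981 and 944 in N+P C5, without overlap. Its list score was 1000 in both N+P lists.

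Absence from the Naive list did not always go with fewer reads. The member with the lowest ratio (-0.40), chr11:33959373-33961165 nearest to Kcnip1 and within an intron of 4930469K13Rik, held 1142, 1143 and 820.2 in Naive against 809.7, 777 and 718 in N+P C1 and 797, 795 and 812 in N+P C5, so that all Naive libraries lay above all N+P libraries. An intronic peak of Selplg (chr5:113963455-113964147), which encodes the selectin ligand PSGL-1, had a ratio of -0.38, and the promoters of Gtf3c2 (chr5:31336984-31337998), a subunit gene of transcription factor IIIC, and Dazap2 (chr15:100512673-100514164) had -0.36 and -0.35. In each of the 4, Naive replicate 3 was the lowest Naive library. The members with most reads were the contig peak and the peaks at Rap2b and Dusp2. At the exonic peak of Rap2b (chr3:61270247-61273838), a Ras-family GTPase gene, Naive libraries held 2138, 2226 and 2815, against 2954, 3283 and 3222 for N+P C1 and 3059, 3025 and 3123 for N+P C5, and all N+P libraries were above all Naive ones. At the promoter of Dusp2 (chr2:127175741-127182086), a phosphatase of MAP kinases, Naive held 3469, 3254 and 2686, against 2282, 2537 and 2643 for N+P C1 and 2756, 2744 and 2722 for N+P C5. Naive replicates 1 and 2 were above all N+P libraries there, and replicate 3 lay among them.

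The lists of the sensitized groups, made after a skin graft, were not used to choose the members. The Sensitized list held 460 of the 744 (61.8%), the S+P C5 list 482 (64.8%), the S+P C7 list 293 (39.4%) and the S+P C4 list 57 (7.66%). The 7026 peaks also listed in Naive were found more often, in 93.6%, 90.1%, 80.7% and 48.1%, and all peaks in 71.1%, 82.9%, 64.0% and 27.0%. The S+P C4 list is short as a whole, with 3657 merged peaks against 8412 to 11213 in the other 6. Of the members, 167 (22.4%) were in none of the 4 lists, 195 were in all but that of S+P C4, 136 in those of Sensitized and S+P C5 only, and 36 in all 4. The 167 were promoter peaks in 31.7%, against 63.3% of the 577 in at least 1 of them.

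**Figure D3:**
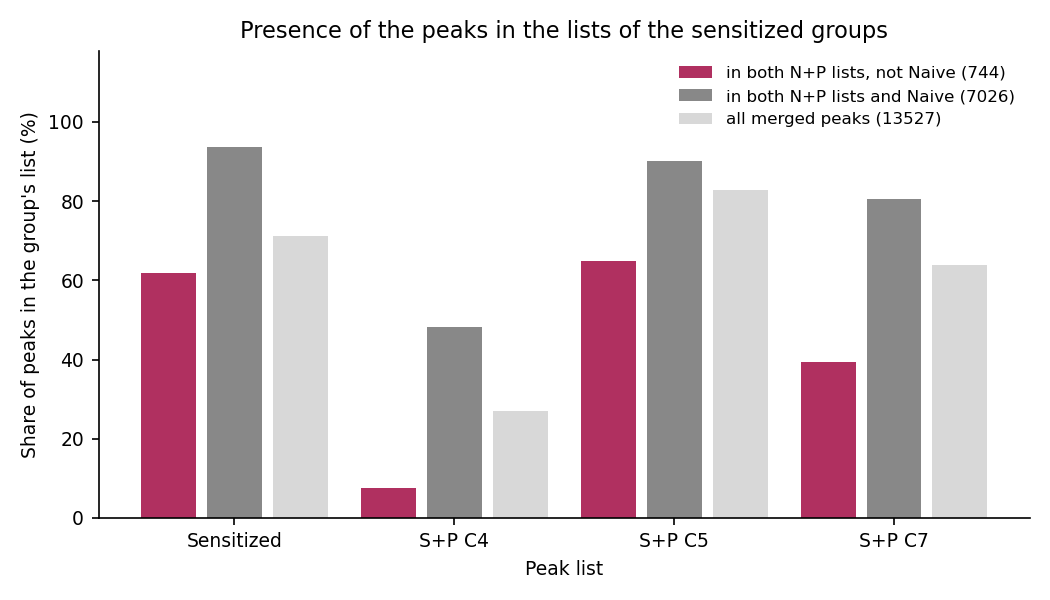
Share of peaks found in each sensitized group's list (y axis, %), for the 744 members, the 7026 peaks in both N+P lists and the Naive list, and all 13527 peaks. In each list the members' share was the lowest of the 3, from 7.66% in S+P C4 to 64.8% in S+P C5.

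Listing went with the level of reads, and the lists were made from these same reads. Members listed in Sensitized had a median of 492 normalized counts in its libraries and the 284 not listed 384. The medians were 507 and 305 in S+P C5, and 643 and 300.3 in S+P C7. In S+P C4 they were 1107 and 421. Over all 744, the median level was 457 in Sensitized, 439 in S+P C4, 416 in S+P C5, and S+P C7 was at 415. Sensitized cells as a group stood at the Naive level at the median member (log2 ratio 0.01), but replicates 1 and 2 were at -0.11 together and replicates 3 and 4 at 0.13.

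Comparisons among the sensitized groups used libraries that the rule had not used, and could be tested. DESeq2's Wald test was fitted to all 13527 peaks and 25 libraries, and a peak was called at a Benjamini-Hochberg adjusted p below 0.1 and an absolute log2 fold change above 0.9. S+P C4, C5 and C7 were each set against the same 4 Sensitized libraries, so the 3 comparisons are not independent of each other. They set sorted subsets after a later pregnancy against Sensitized cells, for which the labels give no PD1 or CD73 gate. Pregnancy, the sorted subset and the time since the graft cannot be told apart in them.

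In S+P C4 against Sensitized, 1 member (0.134%) was called higher, against 0.562% of all peaks and 0.0427% of the 7026, and none lower, against 0.296% and 0.0285%. At an unadjusted p below 0.05, 44 members (5.91%) were higher and 67 (9.01%) lower, against 9.46% and 9.21% of all peaks and 6.80% and 10.01% of the 7026. edgeR's quasi-likelihood test called the same numbers of members, 1 higher and 0 lower, against 51 higher and 29 (0.214%) lower of all peaks. The member called was the contig peak, with 4412, 5212, 5285 and 7741 normalized counts in Sensitized and 105839, 12181, 10895 and 6741 in S+P C4 (log2 fold change 2.58 ± 0.65 (SE), adjusted p = 0.0070). The first S+P C4 library, the shallowest of the series, held most of these reads. Without it the log2 fold change was 0.81 (adjusted p = 0.084). Reads on unplaced contigs may be shared with near-identical copies elsewhere, so this peak is uncertain. The median member had a log2 fold change of -0.09, against -0.04 over the 7026 and -0.02 over all peaks. Without the first S+P C4 library no member was called higher and 3 (0.403%) were called lower, against 0.813% and 0.917% of all peaks. Without Sensitized replicate 1 the calls were 2 higher (0.269%) and 1 lower (0.134%), against 1.52% and 0.429% of all peaks. Without Sensitized replicates 3 and 4 the median member was at 0.08, and 8 members were called higher (125 of all peaks).

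In S+P C5 against Sensitized, 40 members (5.38%) were called lower, against 3.67% of all peaks and 3.79% of the 7026. None was called higher, against 3.08% of all peaks and 0.0427% of the 7026. edgeR called 0 members higher and 40 lower, against 410 higher and 489 (3.6%) lower of all peaks. At an unadjusted p below 0.05, 56 members (7.53%) were higher and 186 (25%) lower, against 17.5% and 20.2% of all peaks and 9.99% and 25.8% of the 7026. The log2 fold changes of the 40 ran from -0.90 to -1.69. By location, 18 of 141 intronic (12.8%), 15 of 156 intergenic (9.62%) and 6 of 418 promoter members (1.44%) were called. The corresponding shares over all peaks, in either direction, were 16.8%, 13.2% and 0.652%. Those calls were 416 higher and 496 lower. Among the 7026, with 3 calls higher and 266 lower, the shares were 13.2%, 10.5% and 0.310%. Of the 40, 35 were in no list of a sensitized group. The median was -0.12 over members, -0.07 over the 7026 and -0.01 over all peaks. Without both Sensitized replicates 3 and 4 the count fell to 3 (0.403%, against 1.09% of all peaks) and the median member stood at 0.02. Leaving out a single library gave counts from 15 (Sensitized replicate 3), 16 (Sensitized replicate 4) and 22 (S+P C5 replicate 2) to 60 (Sensitized replicate 1). These were 2.02%, 2.15%, 2.96% and 8.06% of members, against 2.17%, 2.26%, 2.72% and 4.99% of all peaks. Loess offsets, a scaling that depends on the level of a peak, moved the calls over all peaks from 416 higher and 496 lower to 229 and 629, and those of members to 0 and 52.

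The members with the smallest adjusted p lay near D16Ertd472e, Ccin and Panx1. The intergenic peak near D16Ertd472e (chr16:78328890-78329516) held 258, 333, 393 and 438 normalized counts in Sensitized and 184, 122, 172 and 181 in S+P C5, without overlap (log2 fold change -1.10 ± 0.19 (SE), adjusted p = 9.2e-07). Without Sensitized replicates 3 and 4 it was -0.82 (adjusted p = 0.0051), below the fold threshold. The peak nearest to Ccin, a gene of the sperm cytoskeleton, lay in an intron of Glipr2 (chr4:43973249-43974017) and held 407, 402, 402 and 361 in Sensitized and 196, 165, 253 and 197 in S+P C5 (-0.95 ± 0.17 (SE), adjusted p = 1.1e-06). The Sensitized libraries were close to each other here, and without replicates 3 and 4 the value was -0.99 (adjusted p = 1.9e-04). Without S+P C5 replicate 2 it was -0.87, short of the fold threshold, and the call was lost. The peak near Panx1 (chr9:14971188-14971749), which encodes an ATP-releasing membrane channel, lay in an intron of Hephl1. It held 271, 263, 282 and 295 in Sensitized and 147, 88.8, 143 and 120.2 in S+P C5 (-1.14 ± 0.20 (SE), adjusted p = 1.8e-06), and -1.08 (adjusted p = 0.0013) without Sensitized replicates 3 and 4.

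In S+P C7 against Sensitized, 85 members (11.4%) were called lower, against 8.03% of all peaks and 8.45% of the 7026, and 1 (0.134%) higher, the contig peak, against 3.84% of all peaks and 0.0285% of the 7026. At an unadjusted p below 0.05, 91 members (12.2%) were higher and 291 (39.1%) lower, against 25% and 27.4% of all peaks and 17.7% and 34.2% of the 7026. Log2 fold changes of the 85 ran from -0.91 to -2.71 with a median of -1.48. Called members made up 30 of 141 intronic (21.3%), 32 of 156 intergenic (20.5%), 8 of 28 exonic (28.6%) and 15 of 418 promoter members (3.59%). Over all peaks, the shares called in either direction were 26.8%, 23.3%, 18.2% and 2.11%, from 519 higher and 1086 lower calls. Among the 7026, with 2 calls higher and 594 lower, they were 26.4%, 22.9%, 18.4% and 1.40%. None of the 85 was in the S+P C7 list, 20 were in the Sensitized list and 64 in none of the 4. In 106 members (14.2%) all 4 S+P C7 libraries lay below all 4 Sensitized libraries, against 13.1% of all peaks and 15.7% of the 7026. The median was -0.17 over members, -0.08 over the 7026 and 0.00 over all peaks. Without both Sensitized replicates 3 and 4, 32 members (4.30%) were called lower, against 4.93% of all peaks, and the median member stood at -0.04. Under loess offsets all peaks had 264 higher and 1174 lower calls (519 and 1086 without them) and members 1 and 89.

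**Figure D4:**
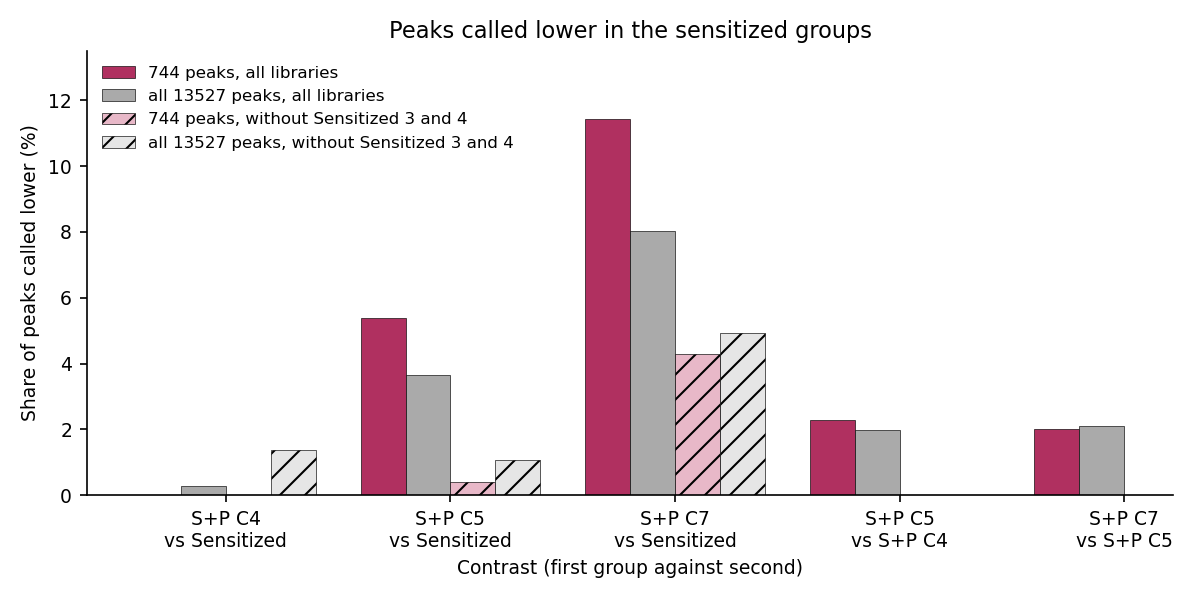
Share of peaks called lower (y axis, %) in each contrast (x axis, first group against second), for the 744 members and all 13527 peaks; hatched bars leave out Sensitized replicates 3 and 4 and are drawn only for contrasts with Sensitized. With all libraries 11.4% of members and 8.03% of all peaks were lower in S+P C7 than in Sensitized, and without the 2 libraries 4.30% and 4.93%.

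The peak with the smallest adjusted p was chr14:99686537-99687843, 151104 bp from the start of Klf5, a zinc-finger transcription factor gene. It held 737, 623 and 769 normalized counts in Naive, 322, 397, 779.7 and 768 in Sensitized, 708, 357, 276 and 345 for S+P C4, 358, 222, 204 and 213 for S+P C5, and 136, 93.6, 59.6 and 62.3 for S+P C7. All 4 S+P C7 libraries lay below every other library shown (log2 fold change against Sensitized -2.68 ± 0.30 (SE), adjusted p = 3.5e-16). The Sensitized libraries split, with replicates 3 and 4 at the Naive level, and without them the value was -2.02 (adjusted p = 1.6e-08). S+P C5 was called lower than Sensitized too (-1.18 ± 0.30 (SE), adjusted p = 0.0012), but not without these 2 libraries (-0.52 (adjusted p = 0.34)). At the Panx1 peak the S+P C7 libraries held 78.2, 49.4, 109 and 80.7 (-1.80 ± 0.21 (SE), adjusted p = 8.6e-15), and without Sensitized replicates 3 and 4 the log2 fold change was -1.75 (adjusted p = 1.0e-08). An intergenic peak 75040 bp from Rasgrp1 (chr2:117247363-117249688), which encodes a Ras activator of T cell receptor signalling, held 1166, 1473, 1444 and 1478 in Sensitized and 689.8, 831, 769 and 648 in S+P C7, without overlap (-0.93 ± 0.11 (SE), adjusted p = 2.7e-14). This value lay close to the fold threshold, and in 6 of 17 alternative fits it was not called (-0.85 without Sensitized replicates 3 and 4). The contig peak held 19521, 13913, 15344 and 8181 in S+P C7 (1.33 ± 0.65 (SE), adjusted p = 0.079), and this call was lost in 8 of 17 alternative fits.

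**Figure D5:**
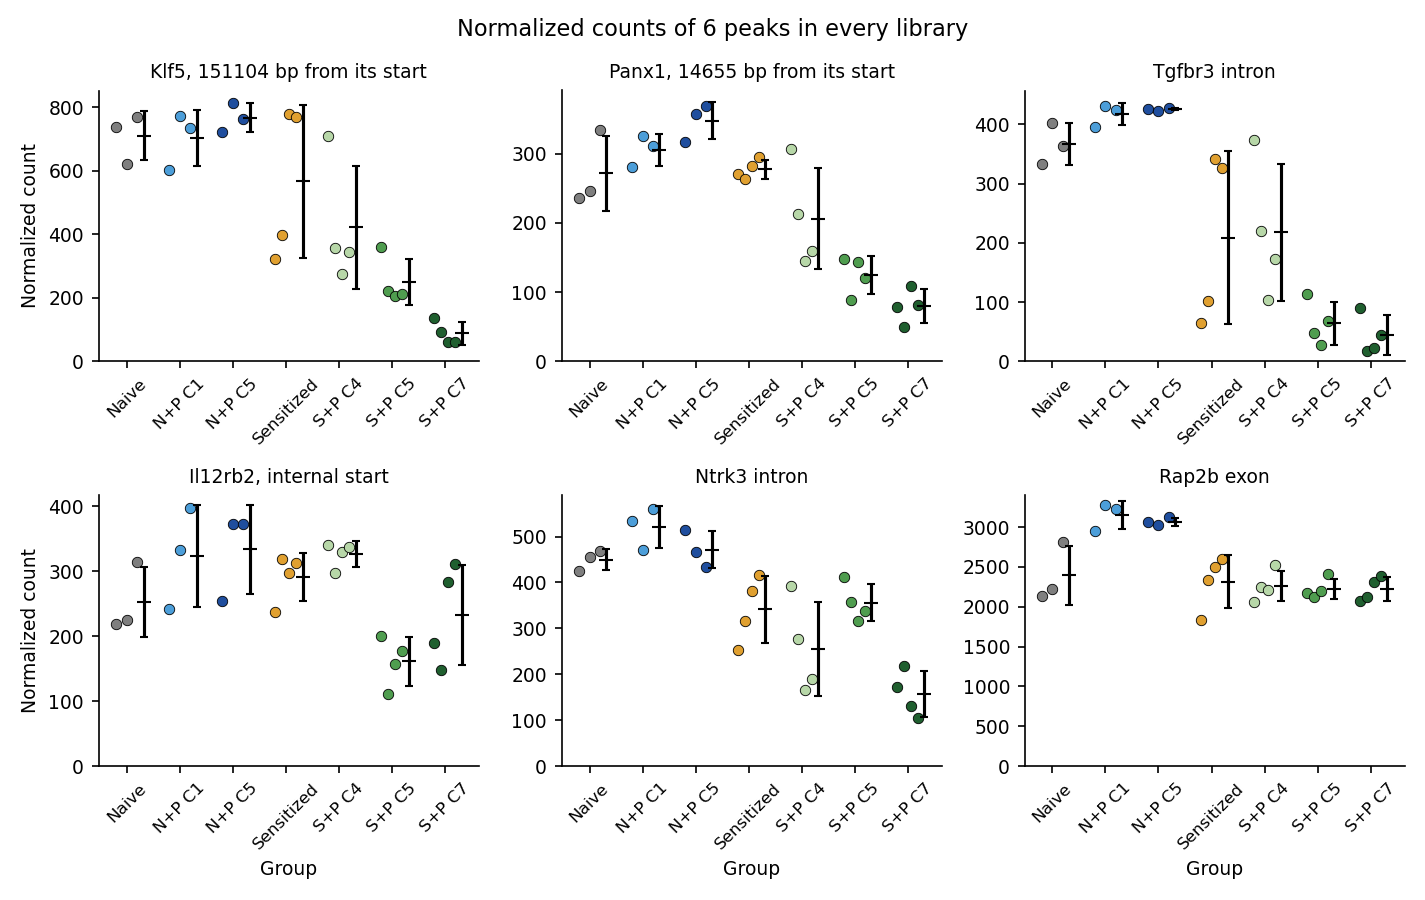
Normalized counts (y axis) in every library at 6 member peaks, by group (x axis); points are libraries, bars the group mean and SD. At the peak nearest to Klf5 the S+P C7 libraries held 59.6 to 136 and Sensitized replicates 3 and 4 held 779.7 and 768; at the Rap2b peak the N+P libraries held 2954 to 3283, above all others.

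Within sensitized animals after pregnancy, subsets of the same animals could be compared. In S+P C5 (PD1+CD73+) against S+P C4 (PD1-), 17 members (2.28%) were called lower, against 2.00% of all peaks and 1.78% of the 7026, and none higher, against 3.12% and 0.114%. At an unadjusted p below 0.05, 34 members (4.57%) were higher and 93 (12.5%) lower, against 10.1% and 10.5% of all peaks and 4.37% and 11.7% of the 7026. edgeR called 0 members higher and 13 (1.75%) lower, against 1.65% of all peaks called lower. Called members were intronic in 8 (5.67%), intergenic in 6 (3.85%) and at promoters in 2 cases (0.478%), besides the contig peak, against 12.7%, 10.1% and 0.456% of all peaks called in either direction. Those calls were 422 higher and 270 lower. Among the 7026, with 8 calls higher and 125 lower, the shares were 6.88%, 5.04% and 0.103%. With the animals as a replicate block 22 members (2.96%) were called lower and none higher, against 2.25% and 3.22% of all peaks. Under loess offsets 30 members were called lower, and the calls over all peaks turned from 422 higher and 270 lower to 274 and 425. Leaving out S+P C4 replicate 1 gave 5 members, and leaving out replicate 3 of that group gave 26. Leaving out replicates 1, 2 or 3 of S+P C5 gave 36, 7 and 9. Over these 5 settings the shares of all peaks called lower were 0.835%, 2.85%, 3.02%, 1.08% and 1.48%, against 0.672%, 3.49%, 4.84%, 0.941% and 1.21% of members. The contig peak was called here (-2.17 ± 0.65 (SE), adjusted p = 0.012), and its call was lost without S+P C4 replicate 1 and with the animals as a replicate block. In a fit to both groups alone DESeq2 gave it no p in this comparison or in that of S+P C4 with Sensitized.

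At the D16Ertd472e peak S+P C4 held 425, 345, 242 and 283, against the S+P C5 values given above (-0.94 ± 0.20 (SE), adjusted p = 8.6e-05), and the fold fell below the threshold without S+P C4 replicate 1 (-0.80) or S+P C5 replicate 2. Il12rb2 encodes the signalling chain of the interleukin-12 receptor. A peak at an internal transcript start of this gene, 36429 bp from its first start (chr6:67316369-67317118), held 340.3, 297, 329.6 and 338 in S+P C4 against 199, 110.2, 157 and 177 in S+P C5, without overlap (-1.003 ± 0.22 (SE), adjusted p = 3.2e-04). S+P C7 libraries held 189.7, 148, 283 and 311 there, and Sensitized libraries 236, 319, 297 and 312. Without S+P C5 replicate 2 the log2 fold change was -0.87, short of the fold threshold, and the call was lost.

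In S+P C7 (PD1+CD73-) against S+P C5, 15 members (2.02%) were called lower, against 2.11% of all peaks and 1.69% of the 7026, and none higher, against 0.266% of all peaks and none of the 7026. With the animals as a replicate block 23 members (3.09%) were called lower, against 2.96% of all peaks in that fit. At an unadjusted p below 0.05, 46 members (6.18%) were higher and 94 (12.6%) lower, against 7.13% and 11.3% of all peaks, and edgeR called 0 higher and 12 (1.61%) lower, against 1.86% of all peaks. Leaving out S+P C5 replicate 1 gave 4 members (0.538%, against 1.25% of all peaks), and leaving out replicates 4, 3 or 1 of S+P C7 gave 8, 9 and 32 (1.08%, 1.21% and 4.30%, against 1.26%, 1.66% and 4.07%). Ntrk3, a neurotrophin receptor gene, held the first of them in an intron (chr7:78247011-78248234), with 411, 358, 316 and 339 in S+P C5 against 173, 218, 131 and 106 in S+P C7 (-1.20 ± 0.22 (SE), adjusted p = 2.2e-05). The S+P C5 libraries there were at the level of Sensitized (252, 317, 381 and 417). The Klf5 peak described above was the second (-1.50 ± 0.31 (SE), adjusted p = 1.4e-04), and the lowest S+P C5 library was above the highest of S+P C7. Near Dapl1 (chr2:59304072-59305082, 10420 bp from its start), S+P C5 held 258, 207, 220.2 and 234, above all of S+P C7 at 130.1, 80.0, 106 and 75.6 (-1.23 ± 0.26 (SE), adjusted p = 2.6e-04). All 3 calls were kept in every one of 17 alternative fits.

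The share of members was set against lists of genes of CD8+ T cell biology. Members made up 3 of 68 peaks of co-inhibitory and exhaustion genes (4.41%), 5 of 158 of naive and stem-like genes (3.16%), 3 of 106 of effector and memory genes (2.83%), 7 of 149 of T cell receptor signalling genes (4.70%), 6 of 135 of cytokine receptor and Jak-Stat genes (4.44%) and 3 of 106 of ribosomal protein genes (2.83%), against 5.50% of all peaks. In S+P C7 against Sensitized, 3 of 6 cytokine receptor, 1 of 5 naive and stem-like and 1 of 7 T cell receptor signalling peaks among the members were called lower, against 8.03% of all peaks. Of the same 6 cytokine receptor peaks, 2 were lower in S+P C5 than in Sensitized, against 3.67% of all peaks, and 3 in S+P C5 than in S+P C4, against 2.00%. All but the Il12rb2 peak of these 6 were intronic or intergenic, where calls were more frequent. In S+P C7 against Sensitized, 21.3% of intronic and 20.5% of intergenic members were called. In S+P C5 these shares were 12.8% and 9.62% against Sensitized and 5.67% and 3.85% against S+P C4. Both Smad7 peaks were among the 3 called in S+P C7. Of the 7 T cell receptor signalling peaks 1 was lower in S+P C7 than in S+P C5, against 2.11%. Without Sensitized replicates 3 and 4 the calls against Sensitized near Tgfbr3, Bcl2 and Cblb were lost, as was that of Smad7 in S+P C5, while both Smad7 peaks kept theirs in S+P C7.

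Among receptors and their regulators, Tgfbr3 encodes the TGF-β co-receptor betaglycan. Its intronic peak chr5:107349417-107350200 held 333, 403 and 363 in Naive, 396, 432 and 424 in N+P C1 and 427, 424 and 428 in N+P C5. The sensitized libraries spread widely, with 65.2, 103, 341 and 327 in Sensitized, 374, 219, 103 and 174 for S+P C4, 113, 47.4, 27.7 and 68.7 for S+P C5, and 91.0, 17.0, 23.2 and 45.1 for S+P C7. Sensitized replicates 3 and 4 and S+P C4 replicate 1 lay near the Naive level and all other sensitized libraries below it. The log2 fold changes against Sensitized were -1.69 ± 0.49 (SE), adjusted p = 0.0055, for S+P C5 and -2.22 ± 0.49 (SE), adjusted p = 6.0e-05, for S+P C7. Without Sensitized replicates 3 and 4 they were -0.36 (adjusted p = 0.75) and -0.88 (adjusted p = 0.21), and neither was called. S+P C5 was also called lower than S+P C4 (-1.73 ± 0.49 (SE), adjusted p = 0.0070).

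Smad7 encodes an inhibitor of TGF-β signalling, and 2 members were nearest to it. At the intergenic one, chr18:75437332-75438462, Naive held 818, 836 and 826, Sensitized 363, 402, 643 and 556, S+P C4 633, 534, 293 and 307, S+P C5 289, 229.6, 208 and 174, and those of S+P C7 177, 170.2, 166 and 138. S+P C5 and S+P C7 were called lower than Sensitized (-1.12 ± 0.21 (SE), adjusted p = 7.1e-06, and -1.60 ± 0.22 (SE), adjusted p = 1.7e-11), and every library of both lay below every Sensitized library. Without Sensitized replicates 3 and 4 the values were -0.76 (adjusted p = 0.021) and -1.24 (adjusted p = 9.1e-06), of which the first missed the fold threshold. S+P C5 was called lower than S+P C4 as well (-0.95 ± 0.22 (SE), adjusted p = 4.1e-04), a call lost on leaving out replicate 1 or 2 of S+P C4 or replicate 4 of S+P C5 (-0.74 at the smallest). The intronic one, chr18:75505250-75507786, was called lower in S+P C7 (-0.92 ± 0.17 (SE), adjusted p = 1.5e-06), with 836, 971, 775 and 794 in Sensitized and 405, 485, 532 and 376 in S+P C7, and not without Sensitized replicate 2 or replicates 1 or 4 of S+P C7. An intronic peak of the interleukin-21 receptor gene Il21r (chr7:125229382-125229885) held 319.8, 371, 399 and 341 for S+P C4, 204, 211, 186 and 181 for S+P C5, and 289, 332, 307 and 345 for S+P C7. S+P C5 was below both other subsets without overlap, with a log2 fold change against S+P C4 of -0.88 ± 0.13 (SE), adjusted p = 2.3e-09, short of the fold threshold. For Stat4, a transducer of interleukin-12 signals, none of the 5 contrasts was called (417, 315, 406 and 426 in Sensitized and 373, 386, 338 and 379 in S+P C7).

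Cblb encodes a ubiquitin ligase that restrains T cell receptor signalling. Of its 4 members, 3 intronic ones had log2 ratios of N+P to Naive of 0.50, 0.31 and 0.47, and the intergenic one 311207 bp away 0.17. At the intronic peak chr16:51874967-51877344 Naive held 605, 452 and 713, against 650.4, 875 and 910.0 for N+P C1 and 789.8, 924 and 877 for N+P C5, while Sensitized held 309.8, 399, 691 and 740.3. The Sensitized libraries again split into replicates 1 and 2 below and replicates 3 and 4 at the upper Naive level. The intergenic member, chr16:51539918-51540845, was called lower in S+P C7 than in Sensitized (-1.19 ± 0.36 (SE), adjusted p = 0.0033), with 53.1, 95.7, 214 and 208 in Sensitized and 67.2, 69.8, 69.6 and 45.8 in S+P C7. That value was -0.24 (adjusted p = 0.66) without Sensitized replicates 3 and 4. It was also called lower in S+P C7 than in S+P C5 (-0.96 ± 0.36 (SE), adjusted p = 0.088), a call that edgeR did not make and that 2 of 8 fits leaving out a library kept. Of the 2 members at Prkcq, which encodes protein kinase C-theta, the intronic one had a ratio of -0.14 and the distal one of 0.32. The promoter of the co-stimulatory receptor gene Icos had 0.11. The 4 members near Ntsr2 on chromosome 12, chosen for their number, had ratios of 0.40, 0.09, 0.48 and 0.39.

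At genes of the naive and stem-like list, a peak 198555 bp from the start of Bcl2, which encodes an inhibitor of apoptosis (chr1:106443131-106443880), held 370.3, 418, 484 and 489 in Sensitized and 247, 262, 182 and 195 in S+P C7, without overlap. It was called lower in S+P C7 (-0.99 ± 0.20 (SE), adjusted p = 1.4e-05), and without Sensitized replicates 3 and 4 it was -0.83 (adjusted p = 0.0082). A second member in the promoter of an internal Bcl2 transcript was called in none of the 5 contrasts. The remaining members of this list, at Foxo1, S1pr1 and Klf3, had log2 ratios of N+P to Naive of 0.23, -0.10 and -0.05 and were called in none of the 5 contrasts.

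Co-inhibitory and effector genes gave no call. Near Nt5e, the gene of CD73 by which the subsets were sorted, an intergenic member 85263 bp away held 222, 221 and 274 in Naive, 247, 301 and 281 in N+P C1 and 302, 302 and 268 in N+P C5, with overlap. The promoter of Cd200, a ligand of an inhibitory receptor, had a ratio of 0.37 and the peak nearest to the transcription factor gene Maf 0.17. At the promoter of the perforin gene Prf1 S+P C7 held 1119, 962, 1022 and 1126 against 879, 862, 700.0 and 763 in Sensitized, without overlap but short of the fold threshold (0.41 ± 0.10 (SE), adjusted p = 4.9e-04). The intergenic member at Klrc1, which encodes the inhibitory receptor chain NKG2A, held 285, 270.4 and 351 in Naive and 759.7, 727, 377 and 422 in Sensitized, where replicates 3 and 4 were again nearer to Naive than replicates 1 and 2. A member 53670 bp from Fasl, the gene of a death ligand, had 1226, 1231, 984 and 1025 in Sensitized and 1432, 1918, 1494 and 1267 in S+P C5, without overlap (0.45 ± 0.12 (SE), adjusted p = 0.0024), below the fold threshold. Of the 3 members nearest to ribosomal protein genes, that near Rpl24 had a ratio of 0.64, that at the Rpl5 promoter 0.21 and that near Rpl14 0.02.

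The rule used no sequence, so the strings shown above were counted in all peaks. In the central 300 bases (or the whole of a shorter peak) the AP-1 string was found in 29 of 744 members (3.90%), 5.88% of the 7026 and 9.14% of all peaks. Outside promoters the shares were 5.83%, 11.3% and 15.8%. At promoters they were 2.39%, 3.45% and 4.05%. The other strings are given in the same order, for members, the 7026 and all peaks. The T-box string was found in 1.84%, 5.18% and 7.72% outside promoters and in 3.83%, 2.75% and 3.16% at promoters. For the RUNX string the shares were 14.1%, 19.5% and 20.1% outside promoters and 4.31%, 3.20% and 3.61% at promoters. For both strings the value for members was the lowest of the 3 outside promoters and the highest at promoters. The ETS string went the other way, with 2.15%, 1.33% and 1.37% outside promoters and 4.55%, 8.28% and 8.06% at promoters, and so did the KLF/SP string (17.2%, 15.9% and 14.7% outside, 57.4%, 68.1% and 66.3% at promoters). The TCF/LEF string was in 4.60%, 8.21% and 7.21% outside promoters and in 1.67%, 1.78% and 1.66% at promoters. The NFAT string was in 4.91%, 6.42% and 7.27% outside promoters and in 4.07%, 2.95% and 3.02% at promoters, and the E-box string in 18.1%, 22.7% and 21.8% outside and 22.01%, 18.5% and 19.4% at promoters. For the CTCF string the shares were 21.2%, 19.1% and 20.4% outside promoters and 16.5%, 15.6% and 16.2% at promoters. None of these differences was tested. A string is a match of letters and not a bound site.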

How the data were processed

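Read counts at the merged peaks were deposited as whole numbers. Per the study's methods and the submitters' processing notes, the authors made these counts by trimming with Cutadapt 3.4, aligning with Bowtie2 2.2.9 to GRCm39, removing reads that mapped to several places and duplicates (Picard 2.21.8), calling peaks per library with Genrich 0.6.1 in its ATAC-seq mode, keeping peaks that ChIP-R found reproducible within a group, merging the groups' peaks with Bedtools 2.27.1 and counting with deepTools. Removal of reads with several places lowers counts in repeats. The 7 peak lists pool the libraries of a group and so have no replicate error. The authors deposited in them a ChIP-R score, a signal value and p- and q-values. The score and q-value describe the lists here, and the signal is not used here. No column of other samples was present (0).

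Overlap with each list was computed for every merged peak, and members were taken by the rule. The members and gene lists were chosen with earlier results of these data known. Location, gene names and sequences came from GRCm39 and GENCODE vM39. Counts at all 13527 peaks and 25 libraries were fitted in DESeq2 1.42.0 (R 4.3.3) with the group as the only term, no filter on low counts, and Wald tests with Benjamini-Hochberg adjustment over all peaks. The thresholds were an adjusted p of 0.1 and an absolute log2 fold change of 0.9. DESeq2, which the study's methods name, was the main test, and edgeR 4.0.16 with TMM factors was an alternative. limma 3.58.1 gave loess offsets. The pipeline was tested on simulated counts. Log2 ratios of means used a pseudocount of 1. All p-values measure the spread between libraries within groups. The main fit took the 25 libraries as independent, although subsets with the same replicate number share animals.

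Peaks named were, by rule, up to 3 called members in each direction per contrast by adjusted p, the 4 highest and 4 lowest ratios of N+P to Naive among members with a mean of at least 50 normalized counts, all members nearest to genes of the lists, and the 3 with the highest counts. Also named were the 3 members nearest to a Naive peak and the 3 other peaks of both N+P lists with the smallest overlap in bp. One of the called members is not reported here.

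Subsets of S+P with the same replicate number came from the same animals, and deviations from the group means correlated in each of the 4 animals (r = 0.103 to 0.572 for C4 with C5, and 0.522 to 0.771 for C7 with C5), so a fit with the replicate block was run on the 12 S+P libraries. The labels give no batch.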

Additional observations from a re-analysis of the deposited data

Results flagged for a closer look

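Among 208 sets of 4 libraries at the 52 named peaks, 12 held a library set apart from the other 3 by more than 0.829 of the range, a gap that chance gives in about 1 of 20 such sets. In the Sensitized group, replicate 4 was below the others at the peak near Ccin (361 normalized counts, 360.68). Replicate 1 was below the others near Rasgrp1 (1166) and Lgr4 (155), and above them near Gtf3c2 (642) and Dazap2 (1013). On the unplaced contig the first S+P C4 library held 105839 normalized counts, and it is also the shallowest library of the series. In the same group the highest library near Nt5e held 296 and the lowest near Ptgr3 794. At the peak near Klf5 the highest S+P C5 library held 358. In S+P C7 the lowest library held 524 near S1pr1 and 45.8 at one of the peaks near Cblb, and the highest held 236 near Cmip. The peaks near Lgr4 and Cmip are not members, because they overlap a Naive peak. The causes were not tested.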

How the results depend on the processing

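Without both Sensitized replicates 3 and 4, a choice made after seeing the data, 8 members were called for S+P C4 (all higher, with 125 higher and 187 lower among all peaks), 3 members were called for S+P C5 (all lower, with 292 and 147) and there were 33 in the case of S+P C7 (32 lower, with 275 and 667). Leaving out 1 library at a time gave 1 to 3 members for S+P C4 (0 higher and 3 lower without replicate 1 of that group, against 0.813% and 0.917% of all peaks, and 2 higher and 1 lower without Sensitized replicate 1, against 1.52% and 0.429%), 15 to 60 when S+P C5 was compared (2.17% and 4.99% of all peaks lower in these fits), 5 to 36 in S+P C5 against S+P C4 (0.835% and 3.02%) and 4 to 32 in S+P C7 against S+P C5 (1.25% and 4.07%), and the median log2 ratio over Naive ranged from 0.17 to 0.30 in N+P C1 and from 0.17 (0.1672) to 0.305 in N+P C5, highest without Naive replicate 3. With a list q-value under 0.05 in both N+P lists, 2 members remained, none of them called in any contrast (0), and their medians over Naive were 0.36 in N+P C1 and 0.32 in N+P C5. For S+P C4 against Sensitized a fit to both groups alone gave 0 calls (22 higher and 18 lower of all peaks). An overlap of 0.5 of the peak left 717 members and gave 0 calls (76 higher and 40 lower of all peaks). Total counts as size factors gave 2 (77 higher and 42 lower of all peaks). In the fit to both groups alone DESeq2 gave the contig peak no p. Total counts also gave medians of 0.18 in N+P C1 and 0.19 in N+P C5. Loess offsets gave 30 calls in S+P C5 against S+P C4, all lower (3.14% of all peaks). With the replicate block 23 members were called lower in S+P C7 against S+P C5 (3.09%, against 2.96% of all peaks) and 22 in S+P C5 against S+P C4 (2.96%, against 2.25%). Apart from the contig peak, no named member lost its call under the block. The causes were not tested. Over the 31 calls at named peaks, 475 of 525 alternative fits that gave a p kept direction and call and 50 kept the direction only. Pooled lists give no error for presence, and N+P and Naive libraries of 3 per group limit the description.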
